A study of Homo sapiens with 7 samples.

Results

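TMEM45A, C1QL1, FAM222A and CDC42BPG are 4 genes of the 60675 gene identifiers in a deposited count table. They were selected on their fold change, as genes with a large rise after DEPDC1 was silenced in MDA-MB-231 cells, and all 4 are among the 16583 genes with enough counts to be tested. MDA-MB-231 is an established human triple-negative breast cancer cell line. RNA sequencing was carried out on cells lipofected with a control siRNA (siCTL, 3 libraries, genotype label DEPDC1 WT) or an siRNA to DEPDC1 (siDEPDC1, 4 libraries, genotype label DEPDC1 KD). In both groups 5 µl of a 20 µM siRNA stock was used with Lipofectamine RNAiMAX and Opti-MEM, the medium was changed after 8 h, and RNA was collected 2 days after transfection. No source used here gives the sequence or number of the siRNA duplexes. The siDEPDC1 against siCTL contrast itself chose the 4 genes, so their differences are described below without a test, and only other genes are tested. Nothing in the labels says that the libraries of a group are separate cultures. The p-values therefore measure library-to-library spread, part or all of which may be technical.

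The 4 genes encode proteins of unrelated kinds. TMEM45A is a protein with several membrane-spanning segments that is abundant in differentiating keratinocytes and is known to be induced by low oxygen, where it has been linked to survival of cancer cells under chemotherapy. C1QL1 is a secreted protein with a C1q domain that organises synapses of cerebellar climbing fibres by binding the adhesion receptor ADGRB3. FAM222A encodes aggregatin, a protein found with amyloid-beta in plaques, and CDC42BPG encodes MRCK-gamma, a kinase that is bound by the active small GTPase CDC42 and belongs to a family that promotes phosphorylation of the myosin II light chain.

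TMEM45A (ENSG00000181458) lies on chromosome 3 from 100492619 to 100577444 on the plus strand, and FAM222A (ENSG00000139438) on chromosome 12 from 109714228 to 109770507, also on the plus strand (GRCh38, GENCODE release 29). C1QL1 (ENSG00000131094) lies on chromosome 17 from 44959693 to 44968071 and CDC42BPG (ENSG00000171219) on chromosome 11 from 64823387 to 64844569, both on the minus strand. All 4 are annotated as protein-coding. A promoter sequence was found in the RefSeq table (GRCh38.p14) for 2 of the 4 genes. For these 2 genes, both chosen for their rise, the 250 bases before the start site are shown. They cover chr3:100492369-100492618 for TMEM45A and chr12:109713575-109713824 for FAM222A, both plus strand, 5′ to 3′. Capitals mark the CCAAT box on either strand (CCAAT or ATTGG) and, in FAM222A, the letters of a cell cycle homology region (TTTGAA).
TMEM45A: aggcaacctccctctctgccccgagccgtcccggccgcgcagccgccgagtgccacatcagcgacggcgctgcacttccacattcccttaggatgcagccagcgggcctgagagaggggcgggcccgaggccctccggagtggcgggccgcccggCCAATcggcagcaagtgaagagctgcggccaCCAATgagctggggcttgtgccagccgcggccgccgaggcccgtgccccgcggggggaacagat
FAM222A: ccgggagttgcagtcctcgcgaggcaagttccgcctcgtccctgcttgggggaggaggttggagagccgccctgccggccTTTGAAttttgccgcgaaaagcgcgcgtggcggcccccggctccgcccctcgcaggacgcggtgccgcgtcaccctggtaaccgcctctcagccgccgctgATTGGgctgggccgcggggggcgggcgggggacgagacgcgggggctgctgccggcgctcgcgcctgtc

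Both windows hold a CCAAT box close to the start site. TMEM45A has 2 copies, at bases -95 to -91 and -64 to -60 before the start, and FAM222A has 1 on the opposite strand at -69 to -65. This motif occurs in 32.0% of all 35116 promoters of the table searched over the same length and on both strands. FAM222A also holds TTTGAA at -170 to -165, a motif of 13.3% of promoters. The GC box GGGCGG has 2 copies in TMEM45A and 4 in FAM222A, of which the last 2 overlap, and is present in 42.6% of promoters. Of the cores bound by hypoxia-inducible factors, ACGTG (18.5% of promoters) is in neither window, and GCGTG (32.2%) is in FAM222A once. The AP-1 motif TGANTCA (6.57% of promoters) is in neither. Both windows are rich in G and C, at 72.8% for TMEM45A and 74.4% for FAM222A, above 85.3% and 88.4% of all promoters. The FAM222A window ends at the RefSeq start, which lies upstream of the GENCODE start given above.

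Sequencing depth ran from 11704246 to 15360409 counts in siCTL and from 7690583 to 13483305 in siDEPDC1. The siRNA target DEPDC1, a DEP domain protein of dividing cells, was at 114, 119 and 120 CPM (counts scaled to library size) in siCTL and at 15.3, 12.7, 13.4 and 11.9 CPM in siDEPDC1, which left 11.2% of its transcript (log2 fold change -3.15 ± 0.075, SE). VIM, CD44, AXL, CAV1, MSN and LGALS1, which mark mesenchymal breast cancer cells, summed to 7322 to 7688 CPM in siCTL and 7238 to 7880 CPM in siDEPDC1, although CAV1 fell from 593 to 442 CPM and LGALS1 rose from 522 to 643 CPM (edgeR adjusted p = 1.1e-07 and 0.00021). The oestrogen and progesterone receptor genes ESR1 and PGR stood at 0.278 and 0.329 CPM in siCTL and 0.057 and 0.429 CPM in siDEPDC1, while the receptor gene ERBB2 was detected at 64.5 and 66.0 CPM. The 8 hormone receptor and luminal genes summed to 408 to 486 CPM and 479 to 576 CPM, mostly KRT19, which rose from 361 to 427 CPM, while CDH1 fell from 1.11 to 0.372 CPM (edgeR adjusted p = 0.006 and 0.003). Among the markers of other cell types, DCN and INS were at 0 in every library, and the sum over all 13 was 36.5 to 40.3 CPM in siCTL and 39.8 to 41.4 CPM in siDEPDC1. The part of these markers in the results was not tested.

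TMEM45A had the largest positive fold change of all 16583 tested genes. The control libraries held 3.39, 4.86 and 3.82 CPM of TMEM45A, and those of siDEPDC1 held 28.5, 26.0, 26.3 and 24.8 CPM. All siDEPDC1 libraries thus lay far above the siCTL libraries, and the lowest siDEPDC1 value was 5.10 times the highest siCTL value. Mean levels were 4.02 ± 0.754 CPM in siCTL (SD, n = 3) and 26.4 ± 1.54 CPM (SD, n = 4), a log2 fold change of 2.70 ± 0.12 (SE). These levels rested on 44 to 74 counts per siCTL library and 202 to 353 per siDEPDC1 library. In siDEPDC1 the spread between libraries, a coefficient of variation of 5.83%, was close to the 6.09% that counting error alone gives. The RNA came from whole cultures, in which a larger number of expressing cells and more RNA per cell cannot be told apart.

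C1QL1 was the least precisely measured of the 4. It stood at 2.65, 3.15 and 1.65 CPM in siCTL and at 4.79, 7.81, 9.38 and 8.29 CPM in siDEPDC1. The groups did not overlap, but siDEPDC1 replicate 1 was only 1.52 times the highest siCTL library, and that library held 49 C1QL1 counts. C1QL1 averaged 2.48 ± 0.764 CPM in siCTL (SD, n = 3) and 7.57 ± 1.96 CPM (SD, n = 4), with a log2 fold change of 1.56 ± 0.20 (SE). The coefficients of variation, 30.7% and 25.9%, were above the counting error of 18.4% and 11.7%. A pseudogene, C1QL1P1, is also annotated, and no source used here says how reads shared with it were counted, so the C1QL1 level is uncertain to that extent.

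FAM222A was at 1.84, 2.95 and 3.30 CPM in siCTL and at 6.55, 7.51, 9.90 and 7.75 CPM in siDEPDC1. Replicate 3 was the highest siDEPDC1 library, as it was for C1QL1, and replicate 1 the lowest. FAM222A averaged 2.70 ± 0.763 CPM in siCTL (SD, n = 3) and 7.93 ± 1.41 CPM (SD, n = 4), a log2 fold change of 1.54 ± 0.18 (SE). FAM222A-AS1, annotated across part of the gene on the opposite strand, had 9 counts in all 7 libraries together, with at most 3 in a library. No source used here gives the strand setting of the counting, so reads of the 2 genes cannot be told apart where they overlap.

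CDC42BPG had the smallest spread of the 4 genes between the control libraries. It stood at 3.68, 3.74 and 4.00 CPM in siCTL and 9.19, 11.9, 10.2 and 10.2 CPM in siDEPDC1. The siCTL libraries lay within a narrow range, with a coefficient of variation of 4.38%, below the 14.1% of counting error. Their closeness therefore does not show a more precise measurement. The lowest siDEPDC1 library, replicate 1, was 2.30 times the highest siCTL library. CDC42BPG averaged 3.81 ± 0.167 CPM in siCTL (SD, n = 3) and 10.3 ± 1.11 CPM (SD, n = 4), a log2 fold change of 1.45 ± 0.14 (SE).

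**Figure D1:**
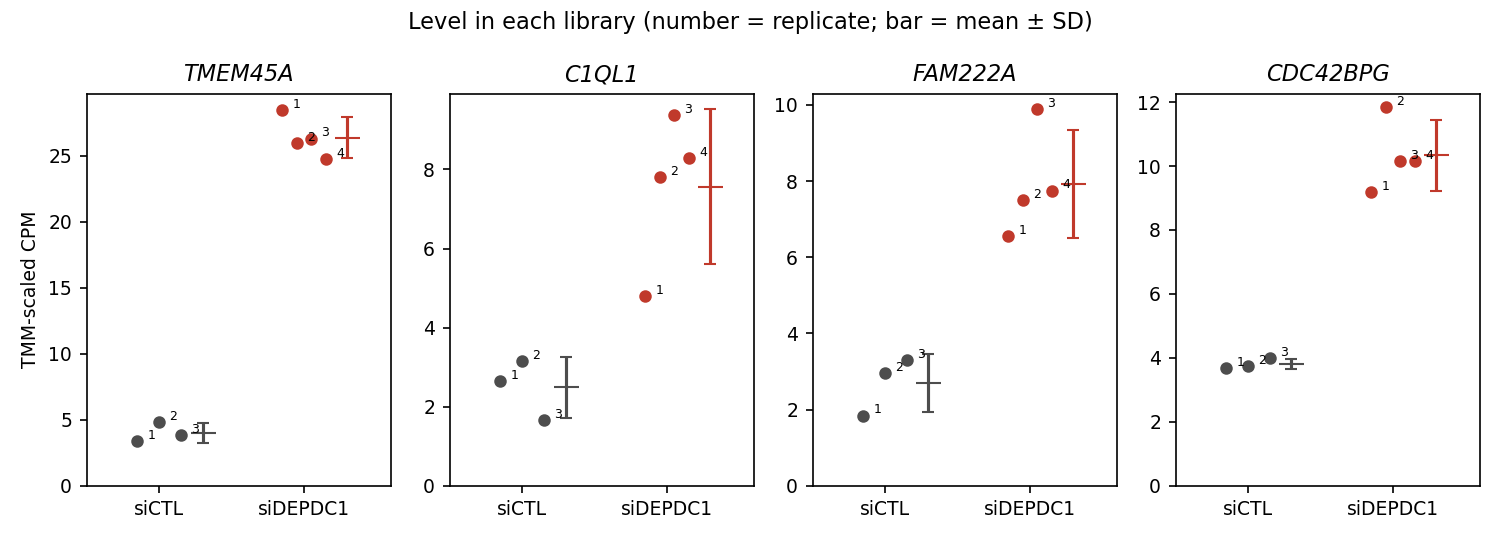
Level of the 4 genes in each library, in CPM scaled with TMM factors on a linear axis from 0, with siCTL in grey and siDEPDC1 in red. Numbers are replicates, and bars to the right of the points give the mean and SD; in all 4 genes the siDEPDC1 libraries lie above the siCTL libraries.

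The order of the siDEPDC1 libraries was not the same in the 4 genes. Replicate 1 had the highest TMEM45A value, 7.08 times the siCTL mean, and the lowest values of the other 3 genes, at 1.93, 2.43 and 2.42 times the siCTL mean for C1QL1, FAM222A and CDC42BPG. Among all tested genes the siDEPDC1 libraries lay above the siCTL libraries without overlap in 17.7% (37.3% in either direction), and 1.33% were called higher by at least 2-fold (edgeR adjusted p under 0.05), but the 4 genes were picked for such a pattern and nothing is read from their own count. All 4 were low in control cells, and their siCTL levels lay above those of 17.5% (C1QL1), 18.5% (FAM222A), 23.3% (CDC42BPG) and 24.1% (TMEM45A) of tested genes.

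**Figure D2:**
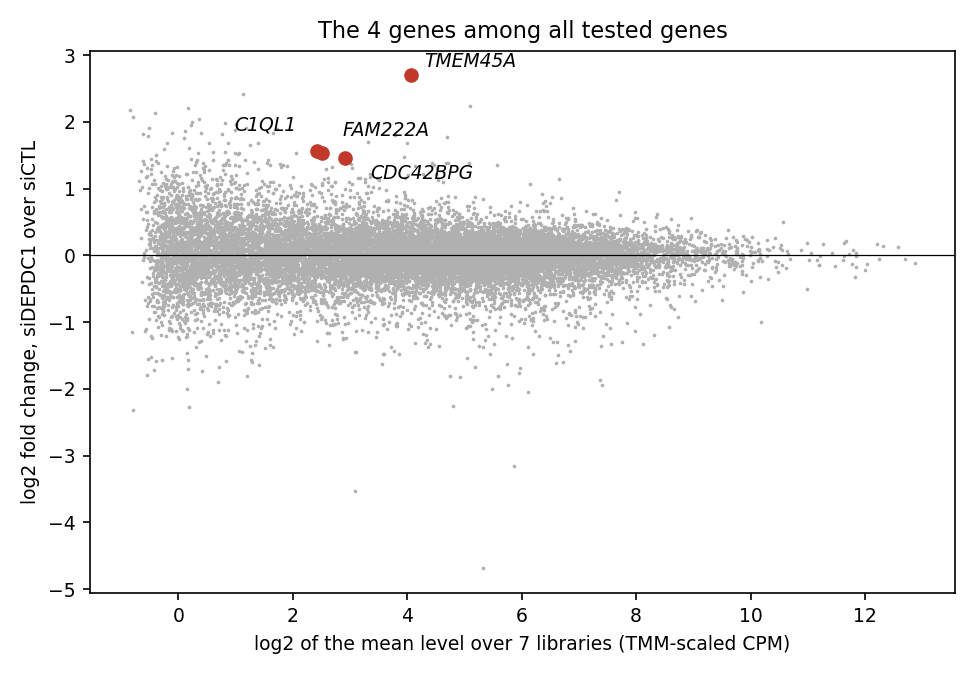
Log2 fold change of siDEPDC1 over siCTL against the log2 of the mean level over 7 libraries (TMM-scaled CPM) for all 16583 tested genes in grey, with the 4 genes in red. TMEM45A, at 2.70, is the highest point, and C1QL1, FAM222A and CDC42BPG lie together between 1.45 and 1.56.

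Levels of different genes were compared per kilobase of the longest annotated transcript. On that scale C1QL1 had the highest mean level in both groups, 1.92 and 5.84 CPM per kilobase in siCTL and siDEPDC1. It was followed by TMEM45A (0.872 and 5.72), FAM222A (0.819 and 2.41) and CDC42BPG (0.663 and 1.80 CPM per kilobase). The place of TMEM45A depends on the transcript taken. Its longest annotated transcript, of 4615 bases, is a retained-intron form, and on its longest protein-coding transcript, of 1910 bases, the levels were 2.11 and 13.8 CPM per kilobase, the highest of the 4 genes in both groups. That choice was made after the values were seen.

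The genes that stood next to the 4 in size of change came from other gene families. Over all 16583 tested genes, whatever their level, the fold changes of C1QL1, FAM222A and CDC42BPG ranked 37, 40 and 48. The comparison was then limited to the 4076 called genes whose mean over the 7 libraries reached 5 CPM and whose groups did not overlap, a limit that all 4 genes met only through their siDEPDC1 levels. In that set, TMEM45A was first and GDF15, a secreted stress-induced protein, second (log2 fold change 2.24). C1QL1 and FAM222A held places 7 and 8, between the histone genes H2AC6 (1.69) and H4C9 (1.47). CDC42BPG was at place 10 of this set, and the histone gene H2BC12 (1.39) followed it. The values from H2AC6 to H2BC12 all lay within the SE of C1QL1 (0.20) around its own value, so this order is not resolved.

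A closer likeness was measured as the root mean square difference, over the 7 libraries, between log2 levels centred on the siCTL mean. The 3 genes most like TMEM45A were GDF15, at a difference of 0.41, CA9, a hypoxia-induced carbonic anhydrase, at 0.70, and LCP1, an actin-bundling protein, at 0.73. For C1QL1 they were the retinoic acid binding protein gene CRABP2 (0.29), the linker histone gene H1-2 (0.32) and CYP24A1, which inactivates vitamin D (0.32). For FAM222A they were B4GALNT1, an enzyme of ganglioside synthesis (0.23), H2BC12 (0.23) and PRR36 (0.25). CDC42BPG had the closest matches, with NPTXR, a neuronal pentraxin receptor, at 0.091, H1-2 at 0.092 and H2BC12 at 0.095. Pearson correlations with these genes ran from 0.939 for CYP24A1 to 0.995 for NPTXR over the 7 libraries, which fall into 2 groups, so these values mainly repeat the difference between groups. Among the 4 genes themselves, FAM222A and CDC42BPG were closest (0.28) and TMEM45A was 0.91 to 0.99 from the other 3.

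The transcripts of C1QL1, FAM222A and CDC42BPG are all rich in G and C, a property that was not used to choose them. Their longest annotated transcripts have 69.3%, 65.1% and 63.1% GC, above 99.5%, 96.8% and 93.6% of tested genes. TMEM45A is at the other end, with 37.7% in its longest transcript (above 7.21% of genes) and 42.5% in its longest protein-coding transcript. Fold changes moved with GC content across all genes, slightly in the median and more in the share called. When tested genes were split into 10 equal groups by GC content, the highest group spanned 61.3% to 85.5%. Its median log2 fold change was 0.071, against -0.065 in the lowest group. In the highest group 22.1% were called higher and 11.1% lower, against 11.8% and 25.2% in the lowest. Called higher by at least 2-fold were 2.44% in the highest group and 0.549% in the lowest. Against the siCTL mean, the median log2 level of that highest group was -0.021, 0.054, 0.10 and 0.17 in siDEPDC1 replicates 1 to 4, and 0.056, 0.037 and -0.088 in the siCTL replicates. Replicate 1 was the lowest siDEPDC1 library for this GC-rich group and for C1QL1, FAM222A and CDC42BPG, but the order of the others differed. Replicate 4 was the highest siDEPDC1 library for the group, while C1QL1 and FAM222A were highest in replicate 3 and CDC42BPG in replicate 2. In siCTL, replicate 3 was the lowest for the group and for C1QL1 (1.65 CPM), but the highest for FAM222A (3.30 CPM) and CDC42BPG (4.00 CPM). The part of GC content in these values was not tested beyond the removal of its trend. After the trend with GC content and length was removed from each library, the log2 fold changes were 1.44 for C1QL1, 1.44 for FAM222A, 1.39 for CDC42BPG and 2.80 for TMEM45A.

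The close relatives of the 4 genes were not higher. TMEM45B, the paralog of TMEM45A, was at 3.31, 2.63 and 2.78 CPM in siCTL and 2.45, 2.58, 2.60 and 3.56 CPM in siDEPDC1. These ranges overlap, and the log2 fold change of -0.047 ± 0.20 (SE; edgeR adjusted p = 0.88) did not pass the test. FAM222B, the paralog of FAM222A, was far more abundant, at 38.6 ± 0.560 CPM in siCTL and 36.7 ± 1.79 CPM in siDEPDC1, and missed the threshold as well (log2 fold change -0.074, edgeR adjusted p = 0.45). Neither of these paralogs was called, beside 34.4% of all tested genes. Their median was -0.061, beside 0.00094 over all tested genes.

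**Figure D3:**
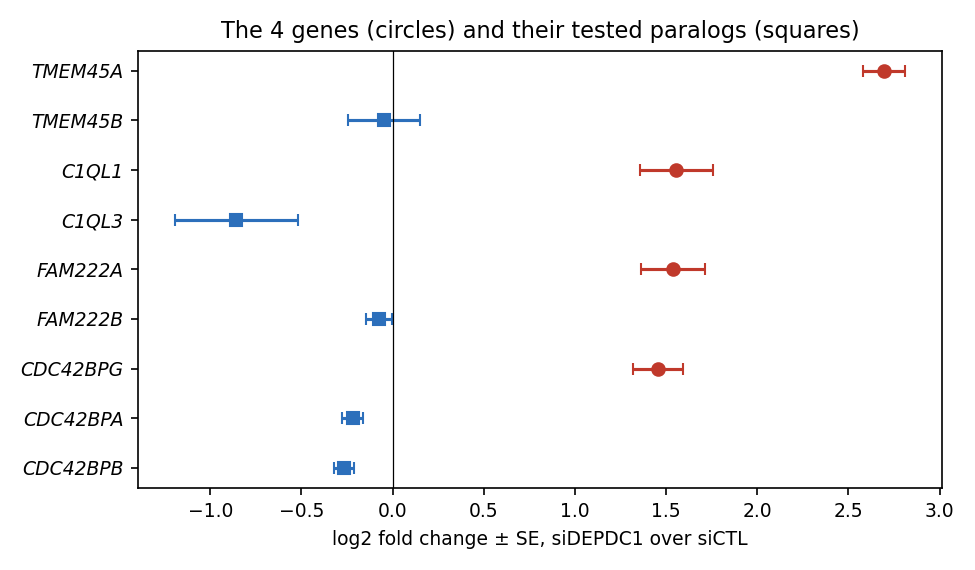
Log2 fold change of siDEPDC1 over siCTL with its SE for the 4 genes (circles) and their tested paralogs (squares). The 4 genes lie between 1.45 and 2.70, and all 5 paralogs lie below 0.

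Proteins with a C1q domain form a large secreted family that includes complement C1q, the cerebellins and the C1q/TNF-related proteins. Of 31 genes listed besides C1QL1, 11 were expressed enough to be tested. COL8A1, a short-chain collagen with a C1q domain, fell from 185 ± 7.77 to 119 ± 5.02 CPM (edgeR adjusted p = 2.7e-11). The RNA-binding protein gene CAPRIN2 fell slightly, at a log2 fold change of -0.19 (edgeR adjusted p = 0.041). That call was lost when any library other than siCTL replicate 2 and siDEPDC1 replicate 1 was left out (edgeR adjusted p = 0.054 to 0.20), and its log2 fold change was -0.066 with the GC and length trend removed. In all, 1 member of the list was higher and 3 were lower, together 36.4%, beside 34.4% of all tested genes called, 16.5% higher and 17.9% lower (edgeR adjusted p under 0.05). The higher member was C1QTNF2, at 0.399 ± 0.0333 and 0.890 ± 0.177 CPM (edgeR adjusted p = 0.021), a gene below 1 CPM named after its values were seen. Its call was lost without siCTL replicate 1 (edgeR adjusted p = 0.071) or siCTL replicate 2 (0.067), and with 55 counts in all it no longer passed the count filter without siDEPDC1 replicate 1, 2 or 4. The median of the list was -0.038.

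The other C1QL genes were scarce. C1QL3 had 1.25, 1.12 and 1.39 CPM in siCTL and 0.587, 0.663, 1.17 and 0.445 CPM in siDEPDC1, ranges that overlap. It was called lower, with a log2 fold change of -0.86 ± 0.34 (SE; edgeR adjusted p = 0.047), but the call was lost without any one library other than siDEPDC1 replicate 3 (edgeR adjusted p = 0.066 to 0.14). C1QL2 had no count in the 7 libraries, and C1QL4 had 7 in all. Of the genes listed for their part with C1QL1 at synapses, 6 of 10 were tested, with a median log2 fold change of 0.25. None was higher and 1 was lower (16.7% called, beside 34.4% of all tested genes). GRIK2, a kainate-type glutamate receptor subunit, fell from 7.74 ± 1.15 to 4.00 ± 0.398 CPM (edgeR adjusted p = 4.3e-06). ADGRB3, the receptor of C1QL1, was at 1.10 ± 0.243 and 1.22 ± 0.188 CPM and did not pass the test (edgeR adjusted p = 0.73).

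CDC42BPG is the scarce form of the 3 MRCK kinases in these cells, and the abundant forms went the other way. CDC42BPA, encoding MRCK-alpha, was at 454, 412 and 467 CPM in siCTL and 415, 353, 384 and 376 CPM in siDEPDC1. Its groups overlapped by 1 library, and it was called lower (log2 fold change -0.22 ± 0.059, SE; edgeR adjusted p = 0.0037), a call lost with the GC and length trend removed (-0.090, edgeR adjusted p = 0.088). CDC42BPB, encoding MRCK-beta, was at 249, 237 and 240 CPM in siCTL and 205, 188, 198 and 212 CPM in siDEPDC1. It fell without overlap between groups (log2 fold change -0.27 ± 0.055, SE; edgeR adjusted p = 0.00025). Per kilobase of transcript, CDC42BPG made up 0.858 ± 0.0423% of the summed MRCK level in siCTL (SD, n = 3) and 2.71 ± 0.430% in siDEPDC1 (SD, n = 4). The summed level was 73.6 to 79.3 CPM per kilobase in siCTL and 62.4 to 70.2 in siDEPDC1. The summed level is thus set by MRCK-alpha and MRCK-beta in both groups.

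Kinases related to MRCK, several of them effectors of CDC42 or RAC, moved both ways. Of 12 tested besides CDC42BPG, 4 were higher and 3 lower (58.3% called, beside 34.4% of all tested genes). Those lower were CDC42BPA and CDC42BPB, described above, and PAK2 (-0.15, edgeR adjusted p = 0.029). The PAK2 call was lost without siCTL replicate 1 or 3 or siDEPDC1 replicate 2, 3 or 4 (edgeR adjusted p = 0.055 to 0.13). PAK4, called higher at 0.17 (edgeR adjusted p = 0.038), lost its call without siCTL replicate 2 or 3 or siDEPDC1 replicate 3 or 4 (0.069 to 0.20). The median log2 fold change was -0.0018. PAK6, a p21-activated kinase, rose from 5.94 ± 0.449 to 13.4 ± 0.724 CPM, and PAK1 from 38.1 ± 0.628 to 53.5 ± 2.46 CPM (edgeR adjusted p = 5.2e-10 and 6.5e-07). CIT, the citron kinase of cytokinesis, rose from 241 ± 3.21 to 299 ± 16.7 CPM (edgeR adjusted p = 3.7e-05). ROCK1 and ROCK2 had log2 fold changes of -0.080 and 0.012 and did not pass the test. PAK2, PAK4, ROCK1 and ROCK2 were named after their values were seen.

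CDC42 itself and the proteins that bind it had 7 higher and 4 lower members of 23 tested (47.8% called, beside 34.4% of all tested genes), with a median of 0.047. The number lower was 1 without siCTL replicate 1 or without siCTL replicate 2, and 2 without siDEPDC1 replicate 1, 2 or 3. PARD6B, a polarity protein that binds active CDC42, rose from 23.9 ± 1.12 to 39.5 ± 2.93 CPM (edgeR adjusted p = 2.5e-09), and its paralog PARD6A from 8.84 ± 0.110 to 12.3 ± 1.13 CPM (edgeR adjusted p = 0.0011). WASL, which couples CDC42 to actin nucleation, fell from 60.7 ± 2.89 to 40.5 ± 4.39 CPM (edgeR adjusted p = 1.3e-07). The CDC42 effector genes CDC42EP3 and CDC42EP1 rose at log2 fold changes of 0.31 and 0.31 (edgeR adjusted p = 5.4e-05 and 0.00034).

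The list on phosphorylation of the myosin II light chain, the step on which MRCK kinases act, is wider than that step. It also holds myosin heavy chain genes, MYO18A and the cofilin gene CFL1. Of 13 tested members, 5 were higher, CFL1 among them, and 4 lower, MYO18A among them. That made 69.2% called, beside 34.4% of all tested genes, and the median log2 fold change was -0.00089. Without siCTL replicate 2 the number higher was 3. MYL9 and MYL12B, both regulatory light chains, rose from 92.4 ± 4.55 to 142 ± 13.1 CPM and from 378 ± 12.5 to 458 ± 28.7 CPM (edgeR adjusted p = 2.5e-09 and 0.0002). MYL12A, another light chain gene, fell from 221 ± 6.63 to 184 ± 4.60 CPM (edgeR adjusted p = 0.00022). MYLK, the myosin light chain kinase, fell from 85.5 ± 2.98 to 58.4 ± 0.650 CPM (edgeR adjusted p = 4.6e-09), and PPP1R12A, the targeting subunit of the phosphatase, had a log2 fold change of -0.27 (edgeR adjusted p = 0.00042). Transcript levels do not measure the phosphorylation of the light chain.

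**Figure D4:**
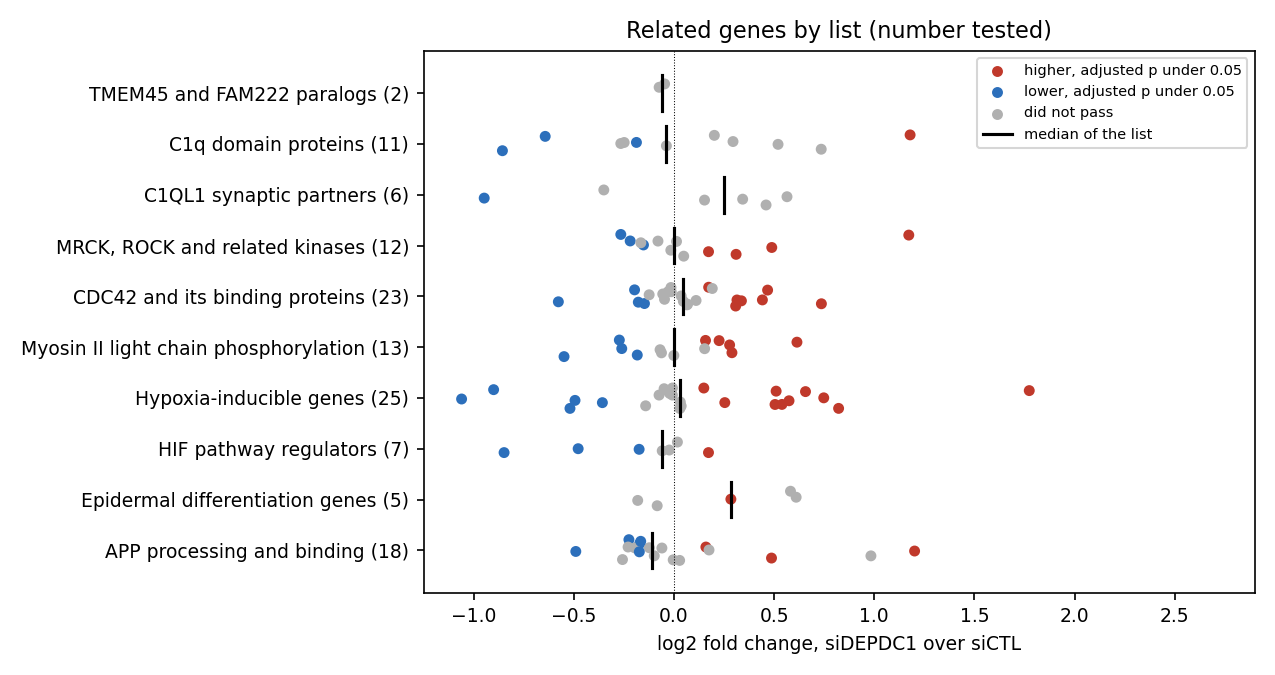
Log2 fold change of siDEPDC1 over siCTL for each tested gene of the 10 lists (number tested in brackets), with genes called higher in red, called lower in blue and the median of the list as a black line. Most lists hold genes on both sides of 0, with medians from -0.11 to 0.28.

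TMEM45A is known as a hypoxia-induced gene, and genes of that response moved in both directions. Of 25 tested, 10 were higher and 5 lower (60.0% called, beside 34.4% of all tested genes, 16.5% higher and 17.9% lower), with a median log2 fold change of 0.029. CA9 was at 11.1, 11.9 and 9.30 CPM in siCTL and 37.4, 34.4, 35.8 and 41.0 CPM in siDEPDC1, a log2 fold change of 1.77 ± 0.093 (SE; edgeR adjusted p = 3.8e-17). NDRG1, a stress-responsive gene, rose from 139 ± 7.25 to 246 ± 16.1 CPM (edgeR adjusted p = 2.3e-13). PFKFB4, of glycolytic control, and P4HA2, a collagen prolyl hydroxylase, had log2 fold changes of 0.75 and 0.66 (edgeR adjusted p = 1.8e-11 and 6.9e-11). The glucose transporter gene SLC2A3 fell from 34.2 ± 3.42 to 18.2 ± 1.11 CPM (edgeR adjusted p = 1.1e-10).

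Among the factors that control this response, 7 of 8 genes were tested, with a median of -0.059. Of these, 1 was higher and 3 were lower (57.1% called, beside 34.4% of all tested genes). EPAS1, encoding HIF-2-alpha, fell from 101 ± 5.65 to 55.8 ± 2.67 CPM (edgeR adjusted p = 3.5e-13). HIF1A, encoding HIF-1-alpha, which is regulated mainly through protein stability, was at 496 ± 26.7 and 476 ± 26.8 CPM and did not pass the test (edgeR adjusted p = 0.45); it was named after its values were seen. EGLN2, an oxygen-sensing prolyl hydroxylase, was called lower (log2 fold change -0.48, edgeR adjusted p = 0.021), but not when siCTL replicate 2, siDEPDC1 replicate 1 or siDEPDC1 replicate 2 was left out (edgeR adjusted p = 0.079 to 0.12). The HIF partner genes ARNT and ARNT2 were called at 0.17 and -0.17 (edgeR adjusted p = 0.033 and 0.042). ARNT lost its call without any one siCTL library or siDEPDC1 replicate 3 (edgeR adjusted p = 0.057 to 0.13), and ARNT2 without siCTL replicate 1 or 3 or siDEPDC1 replicate 2 or 3 (0.054 to 0.24).

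Genes of epidermal differentiation, the setting in which TMEM45A is abundant in skin, were mostly silent. Of 18 listed, 5 were tested, with 1 higher and none lower (20.0% called, beside 34.4% of all tested genes). The median was 0.28, which is the value of KRT10 itself. KRT10, a keratin of differentiating layers, rose from 28.1 ± 3.04 to 34.3 ± 2.89 CPM (edgeR adjusted p = 0.0072), but leaving out siCTL replicate 3 ended the call (edgeR adjusted p = 0.063). FLG, the most abundant gene of the list, was at 53.7 ± 10.3 and 47.4 ± 4.25 CPM and did not pass the test (edgeR adjusted p = 0.18). Without siCTL replicate 2 it was called lower (edgeR adjusted p = 0.0073). FLG was named after its values were seen. For FAM222A the list was of genes that process or bind the amyloid precursor protein. Of 18 tested, 3 were higher and 5 lower (44.4% called, beside 34.4% of all tested genes), with a median of -0.11. The number lower was 3 without siCTL replicate 1 and 2 without siCTL replicate 3 or siDEPDC1 replicate 3. APLP1, an APP-like protein, was at 8.62, 9.98 and 9.12 CPM in siCTL and 19.2, 20.6, 21.6 and 23.9 CPM in siDEPDC1 (log2 fold change 1.20 ± 0.10, SE; edgeR adjusted p = 1.4e-11). APP itself fell from 646 ± 9.18 to 552 ± 16.6 CPM and ADAM17, a protease able to cleave it, from 65.2 ± 4.23 to 46.3 ± 2.22 CPM (edgeR adjusted p = 0.001 and 4.4e-07). CLU, the clusterin gene, rose from 6.80 ± 0.162 to 9.59 ± 0.521 CPM (edgeR adjusted p = 0.0016). APLP2 was called lower at a log2 fold change of -0.17 (edgeR adjusted p = 0.012), but not when siCTL replicate 2 or 3 or siDEPDC1 replicate 3 was left out (edgeR adjusted p = 0.053 to 0.058).

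Genes close to the 4 on the chromosome were examined within 100 kb of each gene body. Of 40 annotated neighbours found in the count table, 16 were expressed enough to be tested. Among these 7 were higher (43.8%, beside 16.5% of all tested genes) and none lower (17.9% of all), with a median log2 fold change of 0.15. The highest log2 fold change of a neighbour was 0.67, for the scarce gene LNP1. The 4 genes were chosen for their large rises, so nothing is read from their standing above their neighbours. Without a single library the number called was 5 to 7.

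Around C1QL1, 3 of 6 tested neighbours were higher. GFAP, an intermediate filament gene best known from astrocytes, rose from 10.6 ± 0.682 to 14.8 ± 0.745 CPM and DCAKD from 20.7 ± 0.625 to 26.6 ± 1.43 CPM (edgeR adjusted p = 0.00026 and 0.0005). KIF18B, a mitotic kinesin and the tested gene nearest to C1QL1, had a log2 fold change of 0.21 ± 0.057 (SE; edgeR adjusted p = 0.0047). Around CDC42BPG, 3 of 6 were higher. EHD1, an endocytic recycling protein gene 7.07 kb away, rose from 233 ± 18.3 to 286 ± 28.7 CPM (edgeR adjusted p = 0.00063), and PPP2R5B, a regulatory subunit of protein phosphatase 2A, from 18.2 ± 1.82 to 23.3 ± 1.17 CPM (edgeR adjusted p = 0.0017). MAP4K2 was the other, at 0.27 (edgeR adjusted p = 0.010), but its call ended when siCTL replicate 1 was left out (edgeR adjusted p = 0.061).

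Near TMEM45A, LNP1 was called higher at 1.21 ± 0.174 and 1.95 ± 0.476 CPM (edgeR adjusted p = 0.048). That call was lost without any one siCTL library or siDEPDC1 replicate 2 or 3 (edgeR adjusted p = 0.062 to 0.18), and TOMM70, a mitochondrial import receptor gene, missed the threshold at a log2 fold change of 0.083; with the GC and length trend removed it was called higher (0.16, edgeR adjusted p = 0.0028). MAP4K2, LNP1 and the neighbours that did not pass were named after their values were seen. ADGRG7, downstream of TMEM45A, had no count in any library. Near FAM222A, TRPV4, a cation channel gene 12.6 kb away, and GLTP, a glycolipid transfer protein gene, did not pass the test (0.22 ± 0.26 and 0.049 ± 0.060, SE).

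**Figure D5:**
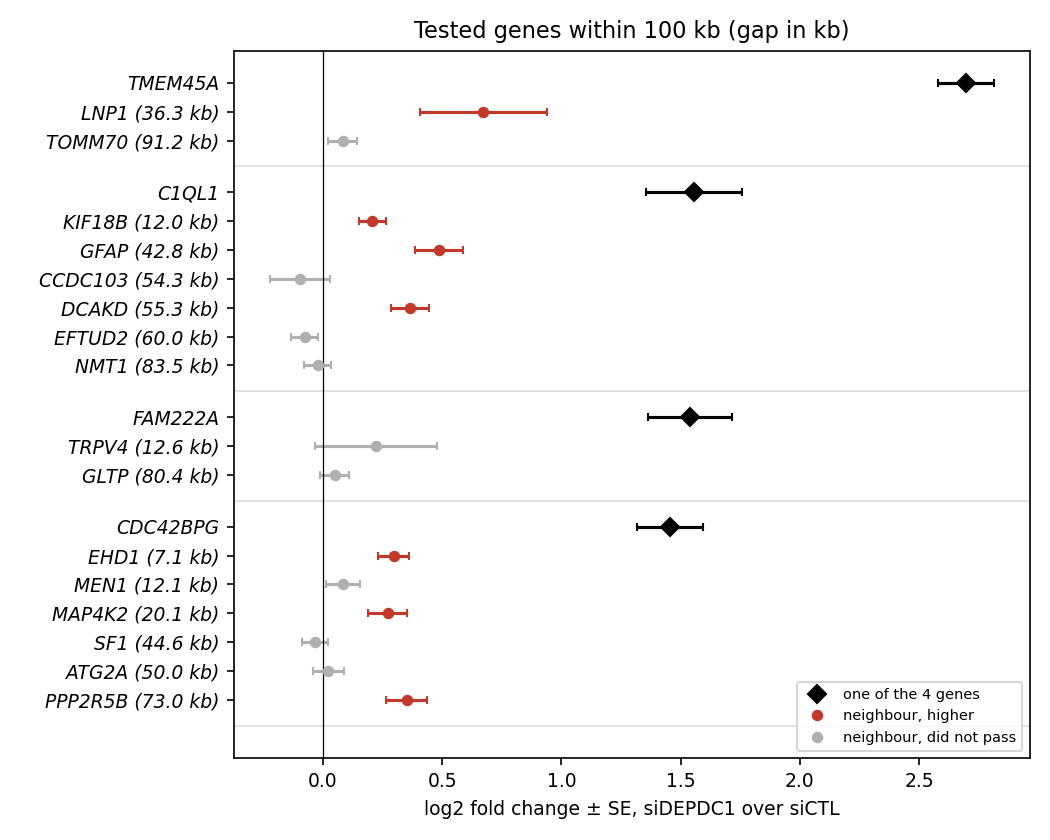
Log2 fold change of siDEPDC1 over siCTL with its SE for the 4 genes (diamonds) and the 16 tested genes within 100 kb of their gene bodies, with the gap in kb in brackets. The 7 neighbours called higher (red) lie between 0.21 and 0.67, and the others (grey) did not pass the test. The 4 genes were chosen for their rise, so their place above the neighbours is not a result.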

How the data were processed

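The deposited table holds unnormalized counts, 1 column for each library and 1 row for each Ensembl identifier. Per the submitters' processing notes, the tools, with no role stated, were STAR 2.7.9a, FastQC and DESeq2 on GRCh38. No source used here gives the read counter, annotation release or strand setting, so overlapping genes may share reads. Of 60675 identifiers, 60419 were found in a name table, which gave 42022 of them a symbol other than the identifier itself. Coordinates, GC content and length came from GENCODE release 29 (58444 identifiers).

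Genes were filtered with filterByExpr, and group differences fitted in R 4.3.3 by edgeR 4.0.16 (TMM, glmQLFit with robust estimation, glmQLFTest, two-sided, group as the only term, Benjamini-Hochberg adjustment over 16583 genes, threshold 0.05), after the script was tested on simulated data. Printed levels are CPM after TMM scaling. SEs of log2 fold changes come from the F statistic. The members and the 10 gene lists were chosen with earlier results of these data known. Named were, per list and among neighbours, up to 5 called genes with at least 1 CPM and the smallest adjusted p, the paralogs of the 4 genes, the genes next in order of fold change, and the 3 genes most like each (log2 CPM, prior count 2, at least 5 CPM). Replicates of a group differed by more than sampling noise (chi-square per degree of freedom 1.67 to 4.59). Alternatives were DESeq2 size factors, library size alone, no count filter, a 50-count minimum throughout a group, DESeq2 1.42.0 as the test, limma-voom (limma 3.58.1), a replicate block, a GC and length trend removed (loess, span 0.4, known for 98.9% of tested genes), and each library left out. A few items are not reported here.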

Additional observations from a re-analysis of the deposited data

Results flagged for a closer look

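Of 15 sets of 4 siDEPDC1 values examined (the 4 genes, DEPDC1 and the medians of the 10 lists), 1 had a library far from the other 3. In the list on myosin II light chain phosphorylation the median log2 level against the siCTL mean was -0.15 in siDEPDC1 replicate 1 and 0.038, 0.044 and 0.058 in replicates 2 to 4, so that the gap to the nearest library was 0.902 of the whole range. Chance marks about 1 in 20 such sets. None of the 4 genes was as far apart, with shares of 0.583 for TMEM45A, 0.657 for C1QL1, 0.642 for FAM222A and 0.638 for CDC42BPG.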

How the results depend on the processing

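All log2 fold changes of the 4 genes stayed positive under the 16 alternatives. They were 2.58 to 2.87 for TMEM45A, 1.36 to 1.77 for C1QL1, 1.33 to 1.68 for FAM222A and 1.37 to 1.51 for CDC42BPG. Of these values, 62 of 63 moved by less than the spread between libraries. The exception was TMEM45A without siCTL replicate 2 (2.87). The unblocked fit of replicates 1 to 3 is the same as the fit without siDEPDC1 replicate 4, so it counts under both names. The genes were chosen for their rise, and the alternatives refit mostly the same counts. Neither outcome therefore tests the rise. C1QL1 was not tested under the 50-count minimum. Same-numbered libraries had correlations of -0.12, -0.042 and 0.0030 between their deviations from the group mean, against -0.18 to 0.11 for differently numbered libraries. These values show no pairing by number. With so few libraries they cannot exclude it. With a replicate block on numbers 1 to 3, 2292 genes were higher and 2437 lower, against 2626 and 2766 in the same 6 libraries unblocked and 2730 and 2974 in all 7, and the median of the 4 genes was 1.53. Over all alternatives 2131 to 3438 genes were higher and 2358 to 3207 lower, the most higher calls coming with the GC and length trend removed (3438) and library size alone moving the split to 3247 higher and 2581 lower.

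Medians of lists are small, and 138 of 160 moved by less than the spread. The fit without siDEPDC1 replicate 4 is again counted under both names, and most counts are shared between the fits. The MRCK, ROCK and related kinases moved to 0.028 with library size alone and 0.016 with the GC and length trend removed, and ran from -0.022 to 0.018 with a library left out. HIF pathway regulators moved to -0.028 with library size alone, -0.030 with the replicate block, -0.030 in the same 6 libraries and 0.0052 with the trend removed, and ran from -0.096 to -0.018 with a library left out. C1q domain proteins moved to -0.17 with the 50-count filter, -0.18 with the replicate block and -0.17 in the same 6 libraries, and ran from -0.25 (without siDEPDC1 replicate 1) to 0.017 (without siCTL replicate 1). C1QL1 synaptic partners moved to -0.93 with the 50-count filter, where fewer genes are tested, and ran from 0.14 to 0.40 with a library left out. Epidermal genes moved to 0.066 with the 50-count filter and APP genes to -0.056 with the trend removed. The cause of the other shifts was not tested. Counts that moved by more than 1.5 times were C1q domain proteins (0 to 2 higher, 1 to 3 lower), synaptic partners (0 to 1 higher), CDC42 binding proteins (1 to 4 lower), myosin light chain genes (3 to 6 higher), HIF regulators (0 to 2 higher, 1 to 3 lower), epidermal genes (0 to 2 higher, 0 to 1 lower) and APP genes (2 to 7 lower).

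The 4 genes had 19 to 74 counts per library in siCTL, which limits the precision of their control levels.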
